A study of Mus musculus with 9 samples.

Results

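A set of 7 genes of the endothelial flow response and of vascular tone was followed in ribosome-bound RNA from the endothelium of mouse white adipose tissue: the transcription factor genes Klf2 and Klf4, the nitric oxide synthase gene Nos3, the endothelin gene Edn1, the natriuretic peptide receptor genes Npr1 and Npr3, and the converting enzyme gene Ace. They were picked by gene symbol, and all 7 were among the 11802 genes of the deposited table. The study asked how loss of endothelial Mfn2, which encodes the mitochondrial fusion protein mitofusin 2, changes the endothelium of fat. It used RiboTag mice, in which Cre recombinase switches on an HA-tagged ribosomal protein (Rpl22HA), so that an antibody to HA can pull tagged ribosomes and their RNA out of a tissue homogenate. The 5 libraries labelled KO came from Pdgfb-iCreERT2:Mfn2iΔEC:Rpl22HA mice, in which endothelial Mfn2 is labelled absent. The 4 libraries labelled WT came from Pdgfb-iCreERT2:Rpl22HA mice, in which it is labelled present. Both groups carry the inducible Cre and the ribosome tag, and the Pdgfb promoter drives Cre in endothelial cells. Each homogenate came from 50 to 100 mg of tissue, and 2 to 5 ng of RNA is given for each sample. No age, sex or time since induction is stated in the sources used here. The replicates are labelled biological and no animal is named, so each p-value weighs a difference against the spread among the 9 libraries, not among known animals. Limma also draws on the spread of the other genes in the table. Its p-values can therefore be smaller than the libraries of a single gene alone would give.

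Steady laminar flow is known to raise Klf2 and Klf4 in endothelial cells through the MEKK3, ERK5 and MEF2 pathway, and both factors then raise Nos3 and thrombomodulin and lower Edn1 and adhesion molecules. Nitric oxide made by the Nos3 enzyme relaxes vessels through guanylate cyclase in smooth muscle, while endothelin-1 constricts them. Npr1 encodes the receptor through which atrial and B-type natriuretic peptides make cyclic GMP, and Npr3 encodes the receptor that clears those peptides. Ace, on the endothelial surface, makes angiotensin II and breaks down bradykinin.

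The level of the targeted gene did not separate the labels. Mfn2 averaged 66.7 ± 37.0 CPM (reads scaled to a common library total; SD, n = 5) in libraries labelled KO and 36.1 ± 15.0 CPM (SD, n = 4) in libraries labelled WT, a log2 difference of 0.81 (limma adjusted p = 0.131). Each direction given here is therefore that of the labels. Which exons were removed is not stated, and reads from exons that remain, or from cells without Cre, do not check the deletion. Listed reads per library numbered 1615968 to 3829356 in KO and 1034753 to 2501048 in WT. Mitochondrial rRNA (mt-Rnr1 and mt-Rnr2) took 12.6 to 24.8% of the library total in KO, against 64.2, 47.0, 47.1 and 13.6% in WT replicates 1 to 4. Library medians of log2(CPM + 1) averaged 0.98 higher in KO than in WT. Each change is therefore given in the deposited CPM and also relative to the library median, after each library's median log2(CPM + 1) had been subtracted. Defining markers of endothelium were present in every library, with Pecam1 at 291 to 654 CPM in KO and 107 to 364 CPM in WT, and so were those of adipocytes (Plin1, 164 to 644 CPM in KO and 211 to 452 CPM in WT), fibroblasts and macrophages. The captures were therefore not free of RNA from other cells, and in such bulk libraries fewer cells of a type and less RNA per cell cannot be told apart.

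All 7 genes had higher mean CPM in the libraries labelled KO, and 6 of them were called higher: Klf2, Klf4, Nos3, Npr1, Npr3 and Ace, but not Edn1. A call means a Benjamini-Hochberg adjusted p under 0.05 over all 11802 genes in limma on log2(CPM + 1). The same rule called 32.0% of all genes higher and 0.203% lower, so the count of 6 comes from a table whose calls nearly all ran one way. Klf2, Nos3 and Npr1 did not overlap between the groups, with every KO library above every WT library, as was the case for 18.7% of all genes. The median log2 fold change of the 7 genes was 1.34 in the deposited CPM, against 1.10 over all genes. Relative to the library median it was 0.36, against 0.12 over all genes, and the relative change of each of the 7 was above 0, as it was in 57.9% of all genes. None of the 7 was called in the relative values, where limma called 4 genes (0.0339%) higher and 9 (0.0763%) lower, and all 7 overlapped between the groups, while 2.07% of all genes had every KO library above every WT library. At an unadjusted p under 0.05, limma had Klf2 and Npr1 higher in the relative values, a rule that 5.99% of all genes met.

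**Figure D1:**
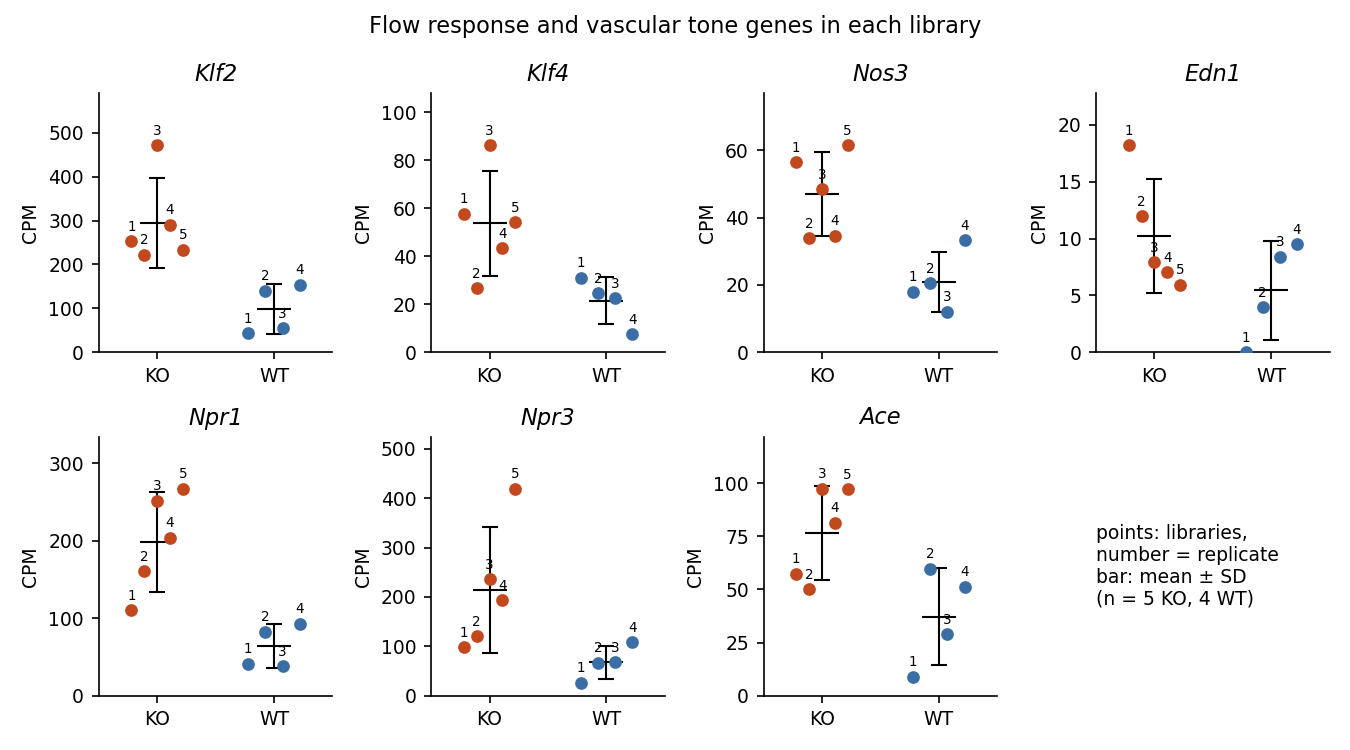
CPM of the 7 genes in each library labelled KO (orange, left, n = 5) and WT (blue, right, n = 4), with the replicate number above each point and bars for the mean ± SD. All 5 KO points lie above all 4 WT points for Klf2, Nos3 and Npr1, and the groups overlap for Klf4, Edn1, Npr3 and Ace.

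The calls in the deposited CPM depended on single libraries and on how libraries were scaled. Over the 9 settings that each left out 1 library, 3 to 6 of the 7 genes were called, while the share of all genes called higher ran from 9.27% without WT replicate 1 to 50.1% without WT replicate 4. Klf2 and Npr1 were called in all 9, Npr3 in 8, Klf4 in 4, Ace in 4 and Nos3 in 2. Klf2, Klf4 and Npr1 were the 3 called without WT replicate 1. Klf2, Npr1 and Npr3 were the 3 called without WT replicate 3 or without KO replicate 3, 4 or 5, settings in which 14.3 to 17.7% of all genes were called higher. None was called once the mitochondrial rRNAs were left out of the library total, where the log2 fold changes ran from 0.60 (Nos3) to 1.14 (Klf2, limma adjusted p = 0.0752). On reads recovered from the CPM, edgeR's quasi-likelihood test and DESeq2 also called none of the 7, Edn1 having no adjusted p from DESeq2. The edgeR test gave 0.63 for Klf2 (adjusted p = 0.472), 0.60 for Npr1 (0.465) and 0.62 for Npr3 (0.529), and −0.03 to 0.11 for the other 4 genes. Of all 11802 genes edgeR called 0.00847% higher and 0.0339% lower, and of the 8124 genes to which it gave an adjusted p DESeq2 called 0.357% higher and 1.38% lower. At an unadjusted p under 0.05 edgeR had 0 of the 7 higher, against 5.21% of all genes, and DESeq2 had Npr1 (0.0487), against 6.26% of the 11775 genes with a p.

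**Figure D2:**
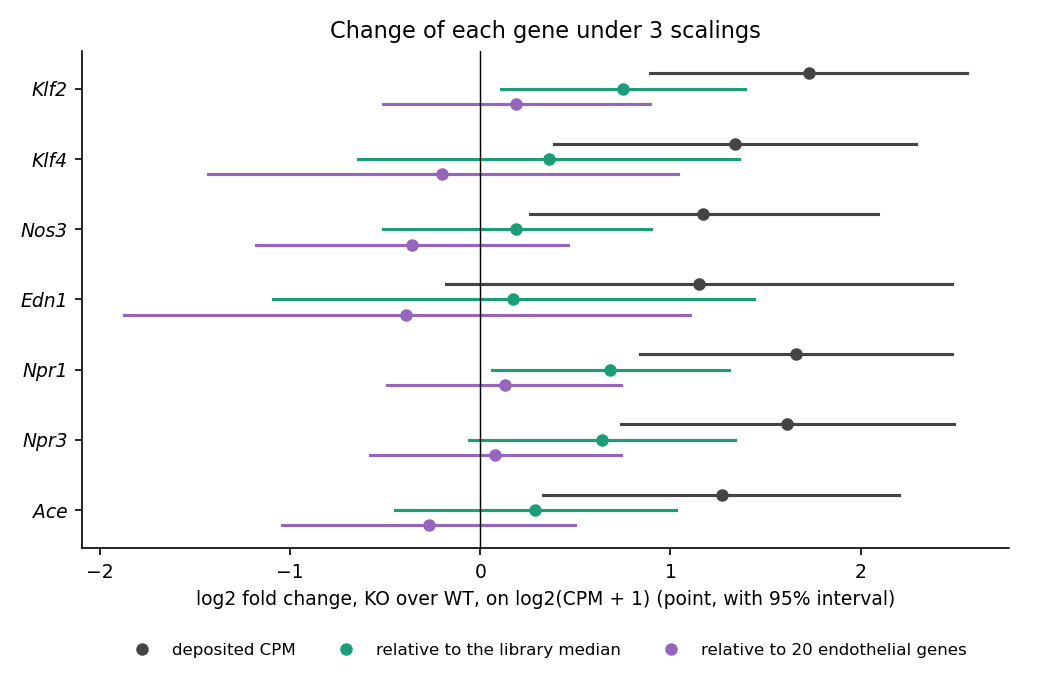
Log2 fold change of each gene, KO over WT, with its 95% interval from limma (n = 5 and 4), in the deposited CPM (grey), relative to the library median (green) and relative to the mean of 20 pan-endothelial marker genes (purple). The intervals exclude 0 for 6 genes in the deposited CPM, for Klf2 and Npr1 relative to the median, and for none relative to the endothelial markers.

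Klf2 encodes a zinc-finger factor that is among the best-known flow-induced genes of endothelium (ENSMUSG00000055148; GRCm38 chr8:72319033-72321656, plus strand). It was at 253, 222, 472, 290 and 233 CPM in the libraries labelled KO (replicates 1 to 5), against 43.65, 140, 54.1 and 154 CPM in those labelled WT (replicates 1 to 4). The lowest KO library, replicate 2, lay above the highest WT library, replicate 4, and WT replicates 1 and 3 were the lowest of all. Group means were 294 ± 103 CPM in KO and 98.0 ± 57.2 CPM in WT (SD, n = 5 and 4), which is 1.73 on the log2 scale (SE 0.417, limma adjusted p = 0.00675). The exact permutation p was 0.00794 (two-sided), the smallest that 9 libraries split into 5 and 4 allow. KO replicate 3 stood apart from the other KO libraries. Without it the log2 fold change was 1.54 (limma adjusted p = 0.0262). Relative to the library median Klf2 was 0.75 higher on the log2 scale (95% interval 0.11 to 1.39, limma p = 0.0243, adjusted p = 0.346), where WT replicate 2 (3.65) lay above KO replicates 1 (3.57) and 5 (3.23) and the exact permutation p was 0.0635.

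Klf4 encodes a close relative of Klf2 that also responds to flow (ENSMUSG00000003032; chr4:55527143-55532466, minus strand). It was at 57.7, 26.8, 86.2, 43.3 and 54.0 CPM in KO, against 31.05, 24.5, 22.6 and 7.60 CPM in WT. The groups overlapped, since WT replicate 1 lay above KO replicate 2, and WT replicate 4 rested on 8 reads. Means were 53.6 ± 21.8 CPM in KO and 21.4 ± 9.91 CPM in WT (SD, n = 5 and 4), a difference on the log2 scale of 1.34 (SE 0.472, limma adjusted p = 0.0310). On the relative scale the change was 0.36 (95% interval −0.64 to 1.36, adjusted p = 0.811), and without WT replicate 4 it was −0.26. Its call in the deposited CPM did not hold without WT replicate 3 (limma adjusted p = 0.0552), WT replicate 4 (0.0670) or KO replicate 3 (0.0998), 4 (0.0525) or 5 (0.0577). Here WT replicate 1 had the highest relative value of all 9 libraries (2.13) and WT replicate 4 the lowest (−1.0).

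The coding sequences of Klf2 and Klf4 resemble each other in the zinc-finger region, and a stretch of each is shown to set their letters side by side. Both come from GENCODE M21 transcripts, bases 801 to 920 of the Klf2 transcript and 1738 to 1857 of the Klf4 transcript, with capitals at the 36 of 120 bases that differ (70.0% identical).
Klf2 coding stretch: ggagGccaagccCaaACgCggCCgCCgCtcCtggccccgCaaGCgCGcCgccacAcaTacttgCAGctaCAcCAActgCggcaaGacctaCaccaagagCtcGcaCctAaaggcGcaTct
Klf4 coding stretch: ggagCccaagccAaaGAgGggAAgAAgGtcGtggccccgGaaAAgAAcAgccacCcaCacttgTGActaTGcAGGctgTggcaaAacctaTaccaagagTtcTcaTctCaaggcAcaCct
Over their best alignment of 304 bases the transcripts were 76.3% identical, and the longest run of identical bases was 14. Klf4 also matched the predicted gene Gm48640 at 91.3% over 242 bases with a run of 57 identical bases, and reads from that run could belong to either copy. Gm48640 was not among the listed genes.

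The upstream windows of Klf2, Klf4, Edn1 and Npr1 are shown to set the 2 related factors beside the constrictor gene and beside the gene that, among the 7, had values closest to those of Klf2. RefSeq windows (GRCm38.p6, up to 250 bases before the annotated start, 5′ to 3′ on the gene's strand) were matched by symbol for 6 of the 7 genes, not for Nos3. Capitals mark CACCC (the core to which KLF factors are known to bind, on either strand), GGGCGG (the GC box bound by SP factors, on either strand) and the MEF2 consensus. The windows lie at chr8:72318812-72319032 (plus), chr4:55532476-55532725 (minus), chr13:42301226-42301475 (plus) and chr3:90465867-90466116 (minus), in that order.
Klf2 upstream window: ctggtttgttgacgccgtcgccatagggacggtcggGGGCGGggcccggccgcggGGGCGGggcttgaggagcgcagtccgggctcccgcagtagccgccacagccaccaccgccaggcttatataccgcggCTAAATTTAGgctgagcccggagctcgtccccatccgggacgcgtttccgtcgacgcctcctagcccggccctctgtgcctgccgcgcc
Klf4 upstream window: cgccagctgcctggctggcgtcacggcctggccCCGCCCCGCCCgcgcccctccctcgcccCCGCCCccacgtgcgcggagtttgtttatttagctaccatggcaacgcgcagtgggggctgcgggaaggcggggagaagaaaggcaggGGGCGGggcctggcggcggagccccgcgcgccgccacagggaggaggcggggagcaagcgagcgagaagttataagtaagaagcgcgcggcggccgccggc
Edn1 upstream window: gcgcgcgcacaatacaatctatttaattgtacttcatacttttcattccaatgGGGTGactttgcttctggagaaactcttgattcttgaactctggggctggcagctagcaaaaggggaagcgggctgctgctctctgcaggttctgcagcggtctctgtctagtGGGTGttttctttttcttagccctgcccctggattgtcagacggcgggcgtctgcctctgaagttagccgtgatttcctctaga
Npr1 upstream window: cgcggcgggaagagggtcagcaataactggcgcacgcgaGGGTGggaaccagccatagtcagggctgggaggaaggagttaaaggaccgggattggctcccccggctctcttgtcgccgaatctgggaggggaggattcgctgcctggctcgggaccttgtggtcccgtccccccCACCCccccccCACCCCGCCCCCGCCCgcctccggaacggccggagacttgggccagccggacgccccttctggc
Klf2 had a MEF2 match 118 bases before the RefSeq start, and no other window of the 6 genes had one. Such a match was present in 3.0% of 27025 windows of the same length. GGGCGG was found 2 times in Klf2, 4 times in Klf4, where 2 of the matches share a base, and 2 times in Npr1, and it was in 32.9% of all windows. CACCC was found 2 times in Edn1 and 3 times in Npr1, where the last runs into a GC box, and it was in 51.3% of all windows. A single CACCC in Klf2 lay 19 bases before the RefSeq start, in a stretch that GENCODE M21 annotates as exon and that is not printed. On either strand, the motif TATAAA is in 13% of all windows, the motif AGATAA is in 10.3%, and the motif TGANTCA is in 6.9%, and the 4 printed windows held none of them. These matches describe letters only and were not tested against the expression values.

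Of the 13 measured genes upstream of the KLF factors (MEKK3, ERK5, MEF2 and the CCM complex), 5 were called higher in the deposited CPM and none lower. That is 38.5%, near the 32.0% of all genes called higher. The 5 were the kinase gene Map3k3 (MEKK3), the MEF2 factor gene Mef2a, Heg1 and Ccm2, which belong to the junctional CCM complex that restrains MEKK3, and Rap1a. Map3k3 averaged 35.6 ± 11.9 CPM in KO and 13.9 ± 6.30 CPM in WT (log2 fold change 1.32, limma adjusted p = 0.0362), and was not called without replicate 1, 2 or 3 of WT or replicate 3, 4 or 5 of KO (adjusted p = 0.0626 to 0.104). The ERK5 gene Mapk7 was at 20.8 ± 4.27 CPM in KO and 17.4 ± 5.79 CPM in WT (0.29, adjusted p = 0.623). Mef2c was at 115 ± 34.0 CPM in KO and 61.6 ± 29.4 CPM in WT (0.95, adjusted p = 0.0654), and was called without WT replicate 4 (1.23, adjusted p = 0.0106). The relative median of the list was −0.03, against 0.36 for the 7 genes and 0.12 over all genes. Its count of calls was 0 without WT replicate 1, KO replicate 3 or KO replicate 5. It was 2 or 3 without replicate 2 or 3 of WT or replicate 4 of KO, and 8 without WT replicate 4. The share of all genes called higher moved as well, from 9.27% without WT replicate 1 to 50.1% without WT replicate 4.

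The 18 measured flow sensors and their couplers had a relative median of 0.34, against 0.12 over all genes. Of them 14 were called higher in the deposited CPM (77.8%, against 32.0% of all genes). They included the channel gene Piezo1 (224 ± 84.2 CPM in KO and 99.1 ± 38.0 CPM in WT; log2 fold change 1.18, limma adjusted p = 0.0274) and the junctional genes Pecam1 and Cdh5 (1.48 and 1.32, adjusted p = 0.0125 and 0.0196). Piezo1 was not called without replicate 1 or 3 of WT or replicate 1, 3 or 5 of KO (0.0505 to 0.112), Pecam1 without WT replicate 1 or 3 (0.0546 and 0.0518) and Cdh5 without replicate 1 of WT or replicate 3, 4 or 5 of KO (0.0514 to 0.0933). The VEGF receptor gene Kdr was at 1187 ± 505 CPM in KO and 360 ± 202 CPM in WT (1.75, adjusted p = 0.00753), and the integrin gene Itgb1 at 943 ± 375 CPM in KO and 311 ± 155 CPM in WT (1.62, adjusted p = 0.00906); both were called in all 9 settings that left out 1 library. Trpv4, P2rx4, Gnaq and Shc1 were not called. The count was 4 without WT replicate 1, 6 without KO replicate 5, and 8 without WT replicate 3 or KO replicate 3. In these settings 9.27%, 15.5%, 15.2% and 14.3% of all genes were called higher, in that order.

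Genes known to rise and genes known to fall under steady flow were both called higher in part. Over all genes the share called higher was 32.0% and the relative median 0.12. Of 21 measured genes known to rise, 10 (47.6%) were called higher and none lower, with a relative median of 0.23. Klf6, another factor of the family, was at 121 ± 64.9 CPM in KO and 32.8 ± 19.8 CPM in WT (log2 fold change 1.97, limma adjusted p = 0.00675). The thrombomodulin gene Thbd, a known target of Klf2, was at 79.4 ± 31.2 CPM in KO and 39.3 ± 15.0 CPM in WT (1.00, adjusted p = 0.0683) and was not called, though it was without WT replicate 4 (0.0484) or KO replicate 1 (0.0452). Of 13 measured genes known to fall, 6 (46.2%) were called higher and none lower, with a relative median of 0.50. Among these were the adhesion molecule gene Vcam1, at 75.2 ± 24.2 CPM in KO and 16.9 ± 9.18 CPM in WT (2.18, adjusted p = 0.00350), the matricellular gene Ccn1 (2.31, adjusted p = 0.00283) and the growth factor gene Pdgfb (1.75, adjusted p = 0.00624). Relative to the library median Vcam1 and Ccn1 had changes of 1.20 and 1.34 (limma unadjusted p = 0.00170 and 0.00254, adjusted p = 0.153 and 0.174). Klf6, Vcam1, Ccn1 and Pdgfb were called in the deposited CPM in all 9 settings that left out 1 library. With 1 library left out, the count for genes known to rise ran from 3 without WT replicate 1 to 15 without WT replicate 4. It was also 4 or 5 without WT replicate 3, KO replicate 3 or KO replicate 5. For genes known to fall the count ran from 4 to 8. It was 4 without replicate 1 or 3 of WT or replicate 4 of KO. It was 8 without WT replicate 4 or KO replicate 1. The share of all genes called higher ran from 9.27% without WT replicate 1 to 50.1% without WT replicate 4.

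Immediate early genes, which tissue handling can also raise and which overlap with the flow genes, were called higher in 9 of 18 measured. That is 50.0%, against 32.0% of all genes, and their relative median was 0.18, against 0.12 over all genes. At an unadjusted p under 0.05 in the relative values, limma had 5 of the 18 higher and none lower. Of all genes 5.99% were higher and 5.69% lower by that rule. With 1 library left out the count of calls in the deposited CPM ran from 6 to 11, while 9.27 to 50.1% of all genes were called higher. Jun was at 136 ± 62.0 CPM in KO and 39.6 ± 20.7 CPM in WT (log2 fold change 1.81, limma adjusted p = 0.00675). The summed CPM of the 18 genes was 708 to 1624 in KO and 291 to 623 in WT. Their part in the Klf2 and Klf4 values was not tested.

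Nos3 encodes the endothelial nitric oxide synthase (ENSMUSG00000028978; chr5:24364810-24384474, plus strand). It was at 56.5, 33.9, 48.3, 34.55 and 61.5 CPM in KO, against 18.0, 20.6, 12.1 and 33.3 CPM in WT. No WT library reached the lowest KO library, but WT replicate 4 came within 1 CPM of KO replicate 2. Means were 46.9 ± 12.5 CPM in KO and 21 ± 8.93 CPM in WT (SD, n = 5 and 4), a difference on the log2 scale of 1.17 (SE 0.455, limma adjusted p = 0.0447; exact permutation p = 0.00794, the smallest possible). On the relative scale it was 0.19 (95% interval −0.51 to 0.90, adjusted p = 0.863). Of the 9 settings that left out 1 library, the call held only without WT replicate 4 (limma adjusted p = 0.0105) or KO replicate 2 (0.0438), and in the other 7 the adjusted p ran from 0.0660 to 0.134. The exons of Nos3 share 1040 bases with the antisense gene Gm15587 and 294 bases with Atg9b, both on the opposite strand and neither among the listed genes. The library kit does not mark strand, so reads there cannot be told apart.

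Of 28 other measured genes of nitric oxide synthesis and signalling, 14 (50.0%) were called higher in the deposited CPM and none lower. The share over all genes was 32.0%, and the relative medians were 0.34 for the list and 0.12 over all genes. Cav1, whose product holds the synthase inactive at caveolae, was at 174 ± 45.7 CPM in KO and 72.7 ± 38.4 CPM in WT (log2 fold change 1.36, limma adjusted p = 0.0172; 0.0826 without WT replicate 1). Its partner in caveolae, Cavin1, was at 4665 ± 1301 CPM in KO and 1981 ± 849 CPM in WT (1.28, adjusted p = 0.0467), a call that held only without replicate 4 of WT or replicate 1 of KO (0.0545 to 0.137 in the other 7 settings). Ddah1 and Ddah2, which degrade an endogenous inhibitor of the synthase, and the arginine transporter gene Slc7a1 were also called higher. The chaperone gene Hsp90ab1 was at 2132 ± 504 CPM in KO and 1357 ± 524 CPM in WT (0.69, adjusted p = 0.205; 0.0448 without WT replicate 4). Gch1, whose enzyme starts synthesis of the cofactor tetrahydrobiopterin, was not called. The count ran from 4 without WT replicate 1 to 21 without WT replicate 4. It was 6 to 9 without WT replicate 3 or without KO replicate 3, 4 or 5. Of all genes 9.27% were called higher without WT replicate 1, 50.1% without WT replicate 4 and 14.3 to 17.7% in the other settings named.

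Edn1 encodes the precursor of endothelin-1, the main constrictor peptide of endothelium (ENSMUSG00000021367; chr13:42301476-42307990, plus strand). It was at 18.2, 11.95, 7.93, 7.03 and 5.92 CPM in KO, against 0, 3.96, 8.40 and 9.50 CPM in WT. These values stand on 60, 25, 22, 12 and 23 reads in KO and on 0, 10, 16 and 10 reads in WT, the fewest of the 7 genes in every library but WT replicate 4, where Klf4 had 8. A count of 0 in WT replicate 1 has an exact 95% Poisson interval up to 3.7 reads, for counting error only. A floor of 3 reads is 1.35 CPM in that library, and runs from 0.772 CPM in KO replicate 5 to 2.85 CPM in WT replicate 4. It was not used as a filter. The groups overlapped, with WT replicates 3 and 4 above KO replicates 3, 4 and 5. Means were 10.2 ± 5.02 CPM in KO and 5.46 ± 4.36 CPM in WT (SD, n = 5 and 4). Edn1 was the only one of the 7 genes not called (log2 fold change 1.15, 95% interval −0.18 to 2.48, limma adjusted p = 0.150; exact permutation p = 0.151), and the interval does not show that its level was the same. Without WT replicate 1 the change was 0.40, and the relative change was 0.17 (95% interval −1.09 to 1.44), or −0.37 without that library.

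Of 6 other measured genes of endothelin processing and receptors, 3 (50.0%) were called higher, against 32.0% of all genes. The 3 were Ece1, which cuts the precursor to the active peptide, and the convertase genes Furin and Pcsk7. Ece1 was at 412 ± 127 CPM in KO and 189 ± 142 CPM in WT (log2 fold change 1.35, limma adjusted p = 0.0201), with adjusted p = 0.115, 0.0562 and 0.0518 without replicate 1 of WT, replicate 3 of WT and replicate 3 of KO. The endothelial receptor gene Ednrb was at 76.8 ± 36.1 CPM in KO and 48.3 ± 32.7 CPM in WT (0.82, adjusted p = 0.153; 0.0334 without WT replicate 4), and relative to the library median its change was −0.15. The constrictor receptor gene Ednra was not among the listed genes. The count ran from 1 without replicate 1 or 3 of WT or replicate 3 of KO to 5 without WT replicate 4. Of all genes 9.27%, 15.2%, 14.3% and 50.1% were called higher in those settings, in that order.

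Npr1 encodes the guanylate cyclase receptor for atrial and B-type natriuretic peptides (ENSMUSG00000027931; chr3:90450591-90465866, minus strand). It was at 110, 161, 252, 204 and 267 CPM in KO, against 41.4, 82.7, 38.3 and 93.1 CPM in WT. No WT library reached a KO library, and KO replicate 1 was the nearest. Means were 199 ± 64.9 CPM in KO and 63.9 ± 28.1 CPM in WT (SD, n = 5 and 4), a difference on the log2 scale of 1.66 (SE 0.410, limma adjusted p = 0.00733; exact permutation p = 0.0159). The relative change was 0.68 (95% interval 0.06 to 1.31, limma p = 0.0326, adjusted p = 0.381; exact permutation p = 0.0556). KO replicate 1 stood apart from the other KO libraries on that scale, at 2.38 against 3.18 to 3.49. The exons of Npr1 share 559 bases with the antisense gene Gm16048, whose reads there cannot be told apart from those of Npr1. Gm16048 was not among the listed genes.

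Npr3 encodes the clearance receptor, which takes up natriuretic peptides and has no cyclase (ENSMUSG00000022206; chr15:11839896-11907287, minus strand). It was at 98.35, 121, 236, 193 and 419 CPM in KO, against 26.55, 66.9, 68.3 and 108 CPM in WT. The groups overlapped by a single pair, WT replicate 4 above KO replicate 1, and KO replicate 5 was the highest. Means were 213 ± 127 CPM in KO and 67.5 ± 33.4 CPM in WT (SD, n = 5 and 4), a difference on the log2 scale of 1.61 (SE 0.437, limma adjusted p = 0.0107; exact permutation p = 0.0317). Without WT replicate 1 the change was 1.23 and the call was lost (limma adjusted p = 0.0637). The relative change was 0.64 (95% interval −0.06 to 1.34, adjusted p = 0.476). Npr3 shares 321 exon bases with Gm5144 on the other strand, which was not among the listed genes.

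Of 5 other measured genes of the natriuretic peptide system, 2 (40.0%) were called higher, against 32.0% of all genes. The same 2 were called in each of the 9 settings that left out 1 library, where 9.27 to 50.1% of all genes were. They were Npr2, the receptor for C-type natriuretic peptide, at 130 ± 30.3 CPM in KO and 34.9 ± 7.96 CPM in WT (log2 fold change 1.87, limma adjusted p = 0.00417), and Furin, at 69.1 ± 28.6 CPM in KO and 18.8 ± 11 CPM in WT (1.92, adjusted p = 0.00714). Relative to the library median Npr2 had a change of 0.89 (limma unadjusted p = 0.00403, adjusted p = 0.216). Npr1 and Npr2 transcripts align over 1710 bases at 71.9% identity, with no identical run above 18 bases. The neprilysin gene Mme, whose enzyme degrades these peptides, was at 7.69 ± 7.31 CPM in KO and 6.71 ± 3.84 CPM in WT (−0.10, adjusted p = 0.904), a change that was 0.43 without KO replicate 2 and 0.18 without WT replicate 1. The peptide genes Nppa, Nppb and Nppc were not among the listed genes.

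Ace encodes angiotensin-converting enzyme (ENSMUSG00000020681; chr11:105967945-105989964, plus strand). It was at 57.4, 50.2, 97.4, 81.4 and 97.2 CPM in KO, against 9.0, 59.7, 28.9 and 51.3 CPM in WT. WT replicate 2 lay above KO replicates 1 and 2, so the groups overlapped, and WT replicate 1 was far below the rest. Means were 76.7 ± 22.1 CPM in KO and 37.2 ± 22.9 CPM in WT (SD, n = 5 and 4), a difference on the log2 scale of 1.27 (SE 0.463, limma adjusted p = 0.0360; exact permutation p = 0.0476). Without WT replicate 1 the change was 0.72 (limma adjusted p = 0.208), and the call was also lost without WT replicate 3 (0.0758) or KO replicate 3 (0.0837), 4 (0.0696) or 5 (0.0726). Its relative change was 0.29 (95% interval −0.45 to 1.03, adjusted p = 0.797), or −0.06 without WT replicate 1. Ace shares 295 exon bases with the antisense gene Gm11651, which was not among the listed genes.

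Of 10 other measured genes of the renin-angiotensin and kinin systems, 4 (40.0%) were called higher, near the 32.0% of all genes. The 4 were Agtrap, Atp6ap2, Lnpep and Anpep. Lnpep, an aminopeptidase that binds angiotensin IV, was at 133 ± 62.6 CPM in KO and 52.1 ± 19.9 CPM in WT (log2 fold change 1.28, limma adjusted p = 0.0245), which was no call without replicate 1 or 3 of WT or replicate 3 or 5 of KO (0.0704 to 0.0829). The peptidase gene Nln was at 44.3 ± 13 CPM in KO and 32.8 ± 14.7 CPM in WT (0.46, adjusted p = 0.381). Agt and the angiotensin receptor genes Agtr1a, Agtr1b and Agtr2 were not among the listed genes. Of 11 measured genes of prostacyclin and hyperpolarising tone, 6 (54.5%) were called higher, among them Ptgs1 (cyclooxygenase-1) and Ramp2. The latter was at 114 ± 43.5 CPM in KO and 43.6 ± 17.8 CPM in WT (log2 fold change 1.34, limma adjusted p = 0.0200). Ramp2 was not called without replicate 1 or 3 of WT or replicate 3, 4 or 5 of KO (0.0515 to 0.0735), and the synthase gene Ptgis was not listed. The counts ran from 1 to 6 and from 1 to 7 over settings that left out 1 library, both lowest without WT replicate 1 and highest without WT replicate 4. They were 1 and 4 without WT replicate 3, 2 and 1 without KO replicate 3, and 3 and 1 without KO replicate 4. In these settings 15.2%, 14.3% and 17.7% of all genes were called higher, in that order. That share was 9.27% without WT replicate 1 and 50.1% without WT replicate 4.

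**Figure D3:**
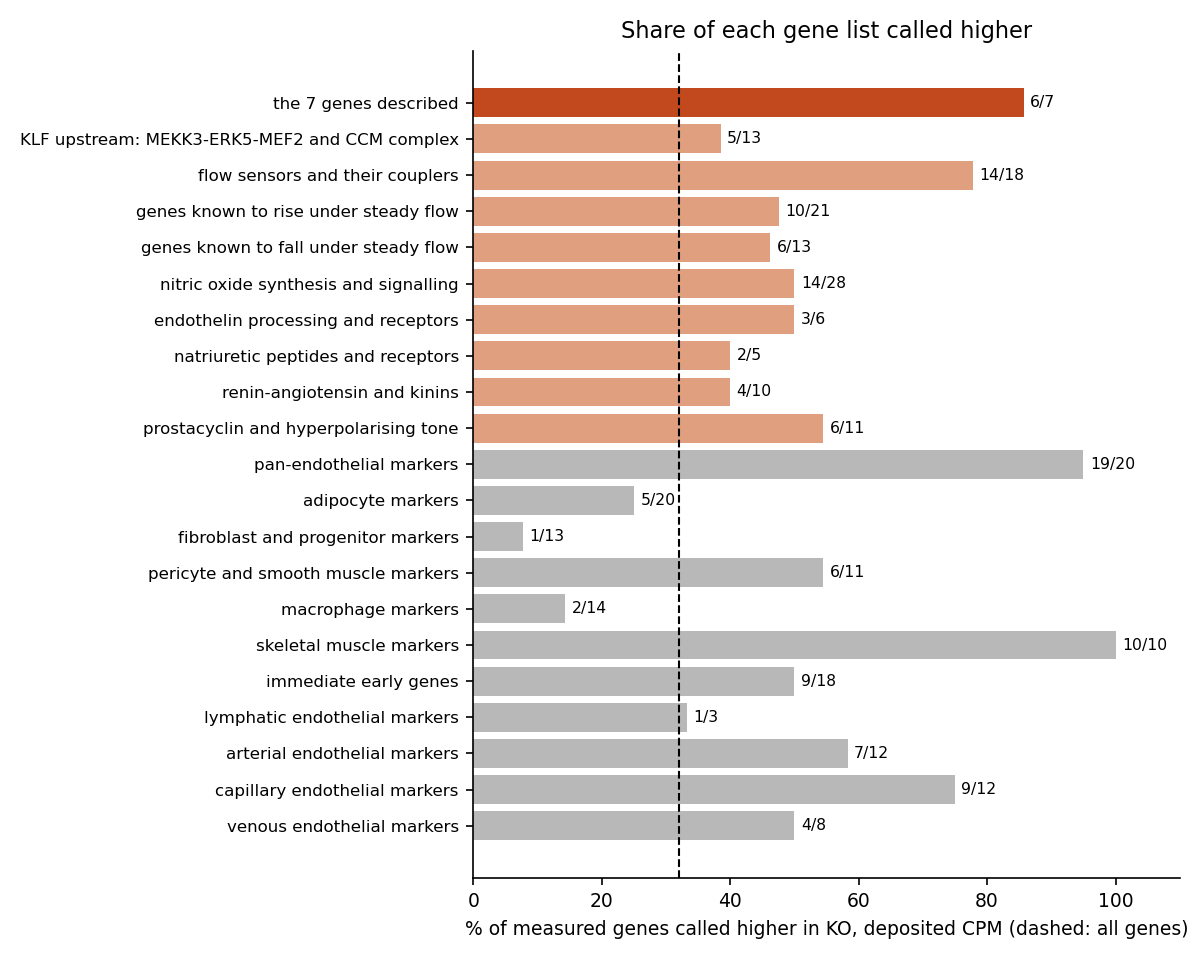
Share of the measured genes in each list that limma called higher in KO in the deposited CPM, with the counts beside the bars. The dashed line marks the 32.0% called among all 11802 genes; the 7 genes described (top) had 6 calls, the pan-endothelial markers 19 of 20 and the fibroblast markers 1 of 13.

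None of these lists had a member called in the values relative to the library median, in either direction. At an unadjusted p under 0.05 limma there had higher values for 0 of the 13 genes upstream of the KLF factors, 4 of the 18 flow sensors, 2 of the 21 genes known to rise under flow, 4 of the 13 known to fall and 4 of the 28 nitric oxide genes. The same count was 1 of 6 for endothelin processing, 2 of 5 for natriuretic peptides, 1 of 10 for the renin-angiotensin and kinin systems and 1 of 11 for prostacyclin and hyperpolarising tone. No gene of these lists was lower by that rule, against 707 higher and 671 lower of all 11802 genes.

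Markers of several cell types moved with the groups. For comparison, 32.0% of all genes were called higher, and the relative median over all genes was 0.12. Of 20 pan-endothelial markers, 19 were called higher, with summed levels of 3243 to 7628 CPM in KO and 1033 to 3611 CPM in WT and a relative median of 0.60, above the 0.36 of the 7 genes. Capillary markers were called in 9 of 12 (relative median 0.59), arterial in 7 of 12 (0.48), venous in 4 of 8 (0.34) and lymphatic in 1 of 3 (0.32), with Prox1 not listed. Skeletal muscle markers were called in 10 of 10 measured (relative median 2.16), with Ckm and Mylpf not listed. Their sums were 480 to 8752 CPM in KO, highest in replicate 5, and 104 to 264 CPM in WT. Pericyte and smooth muscle markers, whose cells also respond to these tone signals, were called in 6 of 11 measured (relative median 0.47). Their sums were 489 to 1039 CPM in KO and 217 to 350 CPM in WT. Rgs5, Tagln, Cnn1, Kcnj8 and Higd1b of this list were not listed in the deposited CPM. Adipocyte markers were called in 5 of 20 (sums 12256 to 26087 CPM in KO and 6023 to 10790 CPM in WT). Much of that sum was Fabp4, which is on the capillary list too, at 11778 ± 4887 CPM in KO and 4272 ± 1408 CPM in WT (log2 fold change 1.43, limma adjusted p = 0.0559). Fibroblast markers were called in 1 of 13 (2773 to 13724 CPM in KO and 3050 to 10070 CPM in WT) and macrophage markers in 2 of 14 (760 to 1650 CPM in KO and 326 to 1276 CPM in WT). The relative medians of these 3 lists were −0.34 for adipocytes, −0.51 for fibroblasts and −0.33 for macrophages. At an unadjusted p under 0.05 in the relative values, limma had 5 adipocyte markers and 2 fibroblast markers lower and none of the 3 lists' genes higher. By that rule 6 of 20 pan-endothelial, 5 of 12 capillary, 2 of 12 arterial, 1 of 8 venous and 0 of 3 lymphatic markers were higher. So were 8 of 10 skeletal muscle markers and 1 of 11 pericyte and smooth muscle markers, and no gene of these other lists was lower. Of all genes 5.99% were higher and 5.69% lower. No marker of the 10 mesothelial genes was listed. Without WT replicate 1 the count of pan-endothelial markers was 8. It was 10 without WT replicate 3, 12 without KO replicate 3 or 5, and 20 without WT replicate 4. Of all genes 9.27%, 15.2%, 14.3%, 15.5% and 50.1% were called higher in these settings, in that order. Over the same settings the counts ran from 6 to 11 for capillary, 3 to 8 for arterial, 1 to 6 for venous, 0 to 2 for lymphatic, 8 to 10 for skeletal muscle, 3 to 6 for pericyte and smooth muscle, 0 to 8 for adipocyte, 0 to 1 for fibroblast and 0 to 4 for macrophage markers. Set relative to the mean of the 20 pan-endothelial markers, a scale chosen after seeing the data, the 7 genes had differences of −0.39 (Edn1) to 0.19 (Klf2) on the log2 scale and none was called. No gene of the table was called higher or lower on that scale (0% of all genes). The 95% intervals there were −0.51 to 0.89 for Klf2 and −0.49 to 0.74 for Npr1. Klf4, Nos3 and Ace had values of −0.20, −0.36 and −0.27 there, below 0 where the values relative to the library median were above it. The part of the other cell types in the changes of the 7 genes was not tested.

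Compared per length, as CPM per kilobase of merged exons, Klf2 was the most abundant of the 7 genes in both groups. It reached 159 ± 55.6 CPM per kilobase in KO and 53.1 ± 31.0 in WT (SD, n = 5 and 4), above Npr1 in every library. Npr1 came next, at 41.5 ± 13.6 CPM per kilobase in KO and 13.4 ± 5.87 in WT, above Npr3 in every library. Npr3 was at 22.7 ± 13.6 CPM per kilobase in KO and 7.19 ± 3.56 in WT. Below it came Klf4 (17.6 ± 7.16), Ace (14.5 ± 4.17) and Nos3 (11.4 ± 3.03) in KO, and Ace (7.04 ± 4.33), Klf4 (7.03 ± 3.25) and Nos3 (5.08 ± 2.16) in WT. These middle neighbours did not hold one order: Npr3 exceeded Klf4 in 3 of 5 KO libraries, Klf4 exceeded Ace in 2 of 5 KO libraries, and Ace exceeded Klf4 in 2 of 4 WT libraries. Edn1 was last, at 4.77 ± 2.35 CPM per kilobase in KO, below Nos3 in 5 of 5 libraries, and at 2.55 ± 2.04 in WT, below it in 3 of 4. With the longest transcript as the length, Npr1 was at 48.9 CPM per kilobase in KO and 15.7 in WT and Npr3 at 31.0 in KO and 9.79 in WT, in the same places.

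**Figure D4:**
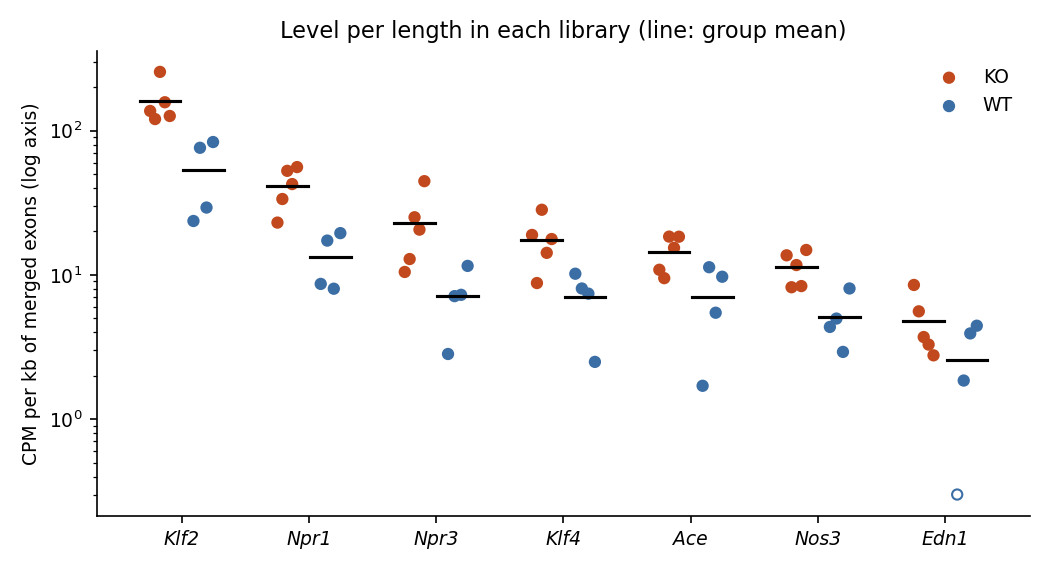
CPM per kilobase of merged exons (log axis) in each library labelled KO (orange) and WT (blue), genes in order of the KO mean, with lines for group means. Klf2 stands above Npr1 in every library, and Edn1 has the lowest mean in both groups; the open circle marks the 1 WT library with 0 reads of Edn1, which has no place on a log axis.

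Ratios of a pair of genes within a library depend on how that library was scaled only through the 1 CPM added to each value, and 3 were compared. The log2 ratio of Edn1 to Nos3, a constrictor over a dilator source, was −1.58, −1.43, −2.47, −2.15 and −3.17 in KO, against −4.25, −2.12, −0.48 and −1.71 in WT. It averaged −2.16 ± 0.705 in KO and −2.14 ± 1.57 in WT, a difference of −0.02 (exact two-sided permutation p = 0.968, n = 5 and 4, adjusted 0.968). The WT range spanned the whole KO range, and the lowest WT value came from the library with 0 reads of Edn1. Klf4 over Klf2 averaged −2.47 ± 0.394 in KO and −2.09 ± 1.61 in WT, a difference of −0.39 (exact permutation p = 0.627, n = 5 and 4, adjusted 0.968), which was 0.15 without WT replicate 1. The KO libraries lay between −3.01 and −2.09 on this ratio, against −4.17 to −0.48 in WT. Npr3 over Npr1, the clearance over the signalling receptor, averaged −0.02 ± 0.395 in KO and 0.03 ± 0.629 in WT, a difference of −0.05 (exact permutation p = 0.889, n = 5 and 4, adjusted 0.968), and 0.22 without WT replicate 3. No difference was detectable at this spread, which does not show that the ratios were equal.

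**Figure D5:**
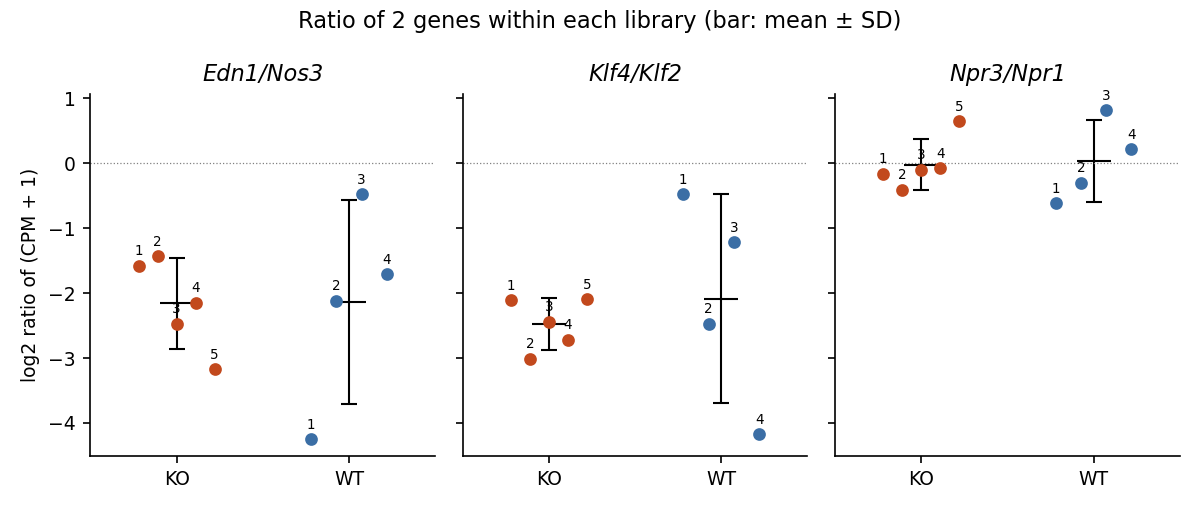
Log2 ratio of (CPM + 1) of 2 genes within each library for Edn1 over Nos3, Klf4 over Klf2 and Npr3 over Npr1, in KO (orange, left, n = 5) and WT (blue, right, n = 4), with replicate numbers and bars for the mean ± SD. The groups overlap in all 3 panels, and the WT libraries spread more widely than the KO libraries for Edn1 over Nos3 and Klf4 over Klf2.

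The pattern over the 9 libraries was also compared gene by gene, among 9338 named genes. The measure was the root mean square (RMS) difference of relative log2 values after each gene's mean was removed. Among the 7 genes, Klf2 and Npr1 were the closest pair (RMS 0.395) and Klf4 and Edn1 the farthest (1.42). Npr1 was closest to Gpihbp1 (0.135), which encodes the capillary protein that carries lipoprotein lipase, then to Prkar1a (0.155) and Timm23 (0.172), against a median of 0.779 over all genes compared. Klf2 was closest to Mylip (0.215), Nos3 to Kdm2a (0.142), Npr3 to Bzw1 (0.142), Ace to Dnajc10 (0.201), Klf4 to Ireb2 (0.236) and Edn1 to Cep135 (0.337), with medians of 0.712 to 1.06. These distances share the libraries and their depth and carry no test.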

How the data were processed

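RNA bound to HA-tagged ribosomes was sequenced in 5 libraries labelled KO and 4 labelled WT. The authors deposited CPM for 11802 genes, per the labels. HISAT2 2.1.0, Trimmomatic 0.39, edgeR 3.32.0, FastQC 0.11.9, R 4.0.2 and the builds mm10 and GRCm38 are listed without roles, per the submitters' processing notes. How reads were counted, on which annotation and with what strand setting is not given in the sources used here. Symbols, exons and coordinates were taken from GENCODE M21 by gene identifier (11787 matched).

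The deposited columns summed to 946406 to 990292, and in each library 100.0% of values, rounded, were whole multiples of 1 step within 0.1 read, so reads were recovered. On these, edgeR 4.0.16 (quasi-likelihood, TMM) called 5 genes and DESeq2 1.42.0 called 141. The main test was limma 3.58.1 (R 4.3.3, with trend) on log2(CPM + 1), as deposited and after subtracting library medians. Its fold changes understate changes of low genes. The lowest gene mean was 1.77 CPM, and no further filter was applied. Single values and ratios were compared by exact two-sided permutation over every split of the libraries. Poisson intervals of read counts and the floors cover counting error only, since reads carry no molecular identifiers. The intervals of log2 fold changes are from limma. They rest on the spread among libraries, which limma moderates for each gene by a trend over all genes.

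The 7 genes, the lists and the tests were chosen with earlier results of these data known. Named genes were the 7, fixed partners and the 2 genes with the highest mean CPM in each list; further genes are named by their call only. For likeness, the 3 nearest genes with a mean of at least 5 CPM were taken. Symbols of Gm followed by digits, symbols ending in Rik and genes without a symbol were left out. Homology was read with blastn 2.17.0+. The settings varied were the pseudocount (0.5 or 5), a minimum mean of 5 CPM, limma without trend, the replicate block, 3 covariates, rescaling without mitochondrial rRNA, quantile normalisation, edgeR, DESeq2, each library left out, and WT replicate 4 left out with KO replicate 5. The scripts were tested on simulated reads with known changes. That simulation had neither the shift of library medians nor the uneven mitochondrial rRNA of these libraries, so it cannot check the calls made here.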

Additional observations from a re-analysis of the deposited data

Results flagged for a closer look

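Of 34 groups of values examined (the CPM and relative values of the 7 genes and the 3 ratios, in each group of libraries), 2 held a library far from the others of its group; chance alone gives about 1 in 20. Klf2 in KO replicate 3 was at 472 CPM, while the next highest KO library was at 290 CPM, a gap of 0.726 of the group's range. Npr1 in KO replicate 1 was at 2.38 on the log2 scale relative to the library median, while the next lowest KO library was at 3.18, a gap of 0.715 of the range. The cause of either gap was not tested.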

How the results depend on the processing

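Pseudocounts of 0.5 and 5 and a mean CPM of at least 5 left the same 6 of the 7 genes called in the deposited CPM. Of all genes, 3804 were called there; the count was 21 with a covariate for mitochondrial rRNA, 0 with the pan-endothelial mean, 1 with the adipocyte mean, 25 rescaled without mitochondrial rRNA, 5 in edgeR, 141 in DESeq2 and 9 after quantile normalisation, and in each of these 0 of the 7 genes were called. Limma without trend called 2911 genes and 3 of the 7 (Klf2, Npr1 and Npr3). Leaving out 1 library gave 1103 to 5930 genes and 3 to 6 of the 7. With the replicate number as a block, 1940 genes and 3 of the 7 were called in the deposited CPM and 38 genes relative to the median; same-numbered libraries did not deviate together (correlations −0.04 to 0.039), so the numbers were not taken to pair them.

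Relative to the median 13 genes were called, and 4 with a pseudocount of 0.5, 5 at a mean CPM of at least 5, 0 without trend, 0 with the mitochondrial rRNA or pan-endothelial covariate, 3 with the adipocyte covariate, 6 without WT replicate 4 and KO replicate 5, 0 with endothelial centring (chosen after seeing the data; 47 higher and 1834 lower at an unadjusted p under 0.05) and 0 to 127 with 1 library left out. None of the 7 genes was called in any of these.

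Changes that turned sign follow, and their cause was not tested. With the mitochondrial rRNA covariate the deposited changes were −0.10 for Edn1, −0.57 for Ednrb, 0.59 for Mme, −0.01 for Id1 and −0.14 for Ptges3. With the pan-endothelial covariate they were −0.09 for Npr3, −0.30 for Ace, −0.34 for Ece1, −1.08 for Ednrb, 0.56 for Mme, −0.02 for Mef2c, −0.06 for Pecam1, −0.08 for Cdh5, −0.29 for Rap1b, −0.67 for Id1, −0.22 for Hsp90ab1, −0.06 for Lnpep and −0.69 for Ptges3. The adipocyte covariate gave −0.03 for Mfn2, rescaling without mitochondrial rRNA gave −0.29 for Mapk7 and −0.13 for Nln, and a pseudocount of 5 gave 0.01 for Mme. In edgeR and DESeq2 the values were −0.03 in both for Klf4, −0.20 in both for Thbd, −0.27 and −0.26 for Ednrb, −0.96 in both for Mapk7, −0.12 in both for Mef2c, −0.16 in both for Mfn2, −0.19 and −0.18 for Rap1b, −0.03 and −0.02 for Id1, −0.40 in both for Hsp90ab1, and −0.65 and −0.64 for Nln. Quantile normalisation gave −0.14 for Ednrb, −0.74 for Mapk7, −0.01 for Mef2c, −0.17 for Mfn2 and −0.54 for Nln. In the relative values Edn1 was at −0.16 with a pseudocount of 5, −0.46 with the mitochondrial rRNA covariate and −0.39 with endothelial centring; Ace was at −0.14 with the mitochondrial rRNA or pan-endothelial covariate and −0.27 with endothelial centring; Klf4 was at −0.24 without WT replicate 4 and KO replicate 5 and −0.20 with endothelial centring; Nos3 was at −0.36 with endothelial centring. With 1 library left out the relative changes ran from −0.26 to 0.78 for Klf4, −0.37 to 0.53 for Edn1 and −0.06 to 0.60 for Ace, and the deposited change of Mme from −0.53 to 0.43. Without WT replicate 4 and KO replicate 5 together, Mme was at −0.58 and the relative change of Edn1 at 0.54. The difference in log2 ratio was 0.21 for Edn1 over Nos3 with a pseudocount of 0.5, and with 1 library left out it ran from −0.73 to 0.53 for Edn1 over Nos3, −1.08 to 0.15 for Klf4 over Klf2 and −0.26 to 0.22 for Npr3 over Npr1. Among the 7 genes Edn1 rested on the fewest reads in total, 0 to 60 a library.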
